A study of Mus musculus with 22 samples.

Results

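RNA-seq of acute myeloid leukaemia (AML) cells was compared with that of the bone marrow mesenchymal stem cells (MSC) that had shared a culture with such cells, to describe which genes set the leukaemia apart from its stroma. The comparison takes 14 of the 22 libraries of the series by their names: 6 libraries of AML cells (KO_AML, n = 3; WT_AML, n = 3) and 8 of co-cultured MSC (KO_MSC_AML, n = 3; WT_MSC_AML, n = 5). KO and WT give the genotype of the stroma. KO MSC came from Lama4-/- mice, which lack the laminin α4 chain, and WT MSC from wild type mice, all C57BL/6J and labelled 10 to 14 weeks old. The AML cells, labelled C57BL/6J and 10 to 12 weeks old, were lineage-negative KIT+ marrow cells into which a retrovirus had brought human MLL-AF9, and they had been expanded in culture. They are labelled wild type in all 6 libraries, so that KO_AML means AML cells grown with KO stroma. How many separate transductions they stand for is not given in the labels. Per the labels, 30000 MSC were plated 24 h before 30000 AML cells were added, and the cultures ran for 48 h. After trypsin, cells were sorted as CD45.1+ for AML and as CD45-, CD44- and SCA1+ for MSC. The MSC had been expanded in culture from sorted cells, so they are a culture-grown stroma and not marrow as taken from the animal. A further 8 libraries of MSC cultured without AML cells (KO_MSC, n = 4; WT_MSC, n = 4) served to show which AML transcripts MSC hold by themselves.

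As background, the marrow stroma keeps blood stem and progenitor cells in place and alive with secreted factors such as CXCL12 and KIT ligand, and builds the collagen and laminin matrix they adhere to. MLL fusion proteins hold myeloid progenitors in an immature state through transcription factors of the HOXA cluster with MEIS1, and through MYB. Leukaemia cells of this kind keep traits of granulocyte and macrophage progenitors, among them granule proteases and colony stimulating factor receptors.

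Total counts ran from 11201751 to 21507251 in AML libraries and from 14455817 to 22204798 in MSC libraries. Levels are in CPM, a gene's counts relative to the TMM-scaled size of its library. Values over libraries are given as lowest, median and highest, and fold changes are on the log2 scale as AML over MSC, with p-values from edgeR's quasi-likelihood test adjusted over all 14536 genes tested. The labels do not say whether replicates are separate animals or cultures, so these p-values measure only the spread between these libraries, which may be technical. In RNA from sorted bulk cells, fewer cells of a type and less RNA per cell cannot be told apart. Per the labels 2 sequencer models were used, with no assignment of libraries to them, so sequencer and cell type cannot be told apart either.

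The libraries matched their cell type, with traces of the other. The sort genes Ptprc (CD45) and Ly6a (SCA1) are checks and not findings: Ptprc was at 175, 199.6 and 219 CPM in AML cells and 0.550, 2.34 and 3.94 CPM in MSC, and Ly6a at 3.97, 7.57 and 16.2 CPM in AML cells and 537, 764 and 1403 CPM in MSC. The groups did not overlap for either gene. For KO_MSC_AML replicate 3 the cell type label reads AML while the title reads MSC, and its Ptprc of 0.550 CPM and Col1a1 of 18898 CPM placed it with the MSC. The gate for MSC asked for cells without CD44, yet Cd44 RNA was at 144, 154 and 171 CPM in AML cells and 238, 285 and 486 CPM in MSC (log2 fold change −1.09, adjusted p = 3.57e-07). Some markers of other cells the sorts could hold were low: the summed erythroid list was at most 2.57 CPM in AML and 0.864 CPM in MSC libraries, and the summed B lymphoid list at most 2.99 and 0.636 CPM. The summed osteoclast list was at most 4.57 CPM in AML libraries and 65.2 to 164 CPM in MSC, with Ctsk at a log2 fold change of −7.00. The summed platelet list was at most 1.86 CPM in AML libraries and 10.8 to 23.2 CPM in MSC, with Itga2b at −5.41. Among the lists of endothelial, T cell and platelet markers, Pecam1 (CD31) stood out in AML cells (50.3 to 61.8 CPM, against 0.471 to 4.17 CPM in MSC), and Thy1 in MSC (2.6 to 14.4 CPM in AML cells, against 1169 to 1414 CPM), while the T cell receptor gene Cd3e was at 0 in both. Of the 6 endothelial genes tested Pecam1 and Egfl7 (log2 fold change 1.67) were higher in AML cells and 4 were lower, with a median of −3.43. Of 2 T and NK cell genes tested 1 was higher and 1 lower, and of 4 platelet genes 1 higher and 2 lower. Of all genes tested 40.0% were higher in AML cells and 44.8% lower.

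Co-cultured MSC held traces of AML transcripts. For 72 genes with a mean of at least 100 CPM in AML cells, none of them reaching 1 CPM in any MSC culture without AML cells, the level in co-cultured MSC had a median of 0.529% (KO_MSC_AML replicate 1) to 3.06% (WT_MSC_AML replicate 2) of the AML level. Low levels in MSC alone were a condition of the choice and show nothing more. The reverse trace was as small. Lama4 was at 0, 0 and 0.0485 CPM in KO_AML and 0.247, 0.0761 and 0 CPM in KO_MSC_AML. It was at 1.46, 3.29 and 3.37 CPM in WT_AML, which is 0.995% of its mean in WT_MSC_AML (276, 295, 325, 251 and 214 CPM). The part of such traces in any single fold change was not tested.

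For KO stroma, the traces in the AML libraries went against the MSC libraries. In KO_AML replicates 1 and 2, counts of 4 Y-linked genes (Ddx3y, Kdm5d, Eif2s3y, Uty) stood at 22.2 and 17.6 per 1000 counts of Col1a1 (7 and 42 Y-linked counts) and in replicate 3 at 0, against 0, 0.143 and 0.00416 in the KO_MSC_AML libraries. In WT_AML they stood at 9.79 to 15.8 per 1000 counts of Col1a1, and in WT_MSC_AML at 12.0 to 14.2. The KO_AML libraries held 315, 2385 and 1232 counts of Col1a1. KO_MSC replicates 1, 2 and 4, cultured alone, had 10.6 to 18.4 Y-linked counts per 1000 of Col1a1. The labels do not say which AML and MSC libraries share a well, and what sets these libraries apart was not tested. Counts of calls are therefore also given for WT stroma alone. That comparison has its own limit. Xist, made by the inactive X chromosome, was at 159 to 220 CPM in KO_AML and 158 to 234 CPM in WT_AML. Ddx3y was at most 0.995 and 0.299 CPM there. In WT_MSC_AML Xist was at 1.38 to 7.89 CPM and Ddx3y at 54.0 to 64.0 CPM. With WT stroma alone, sex and cell type therefore cannot be told apart.

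AML cells and MSC differed in most genes. Of 14536 genes tested 12325 passed the threshold of an adjusted p under 0.05 (84.8%), 5812 higher in AML cells (40.0%) and 6513 lower (44.8%), with a median log2 fold change of −0.09 over all genes. Scaled by library totals in place of TMM the median was 0.35, and 58.0% of the calls were higher in AML cells, against 47.2% with TMM. A further rule asked for a fold change of at least 4: 5182 genes met it (35.6%), 1653 higher (11.4%) and 3529 lower (24.3%). Libraries of the groups did not overlap for 9795 genes (67.4%). With WT stroma alone 11594 genes passed, of which 11204 were among the 12325 and had the same direction. Because most genes passed, counts of list members are read against these shares. The highest and lowest members of a list are named below among those past the threshold with at least 10 CPM in the higher cell type.

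**Figure D1:**
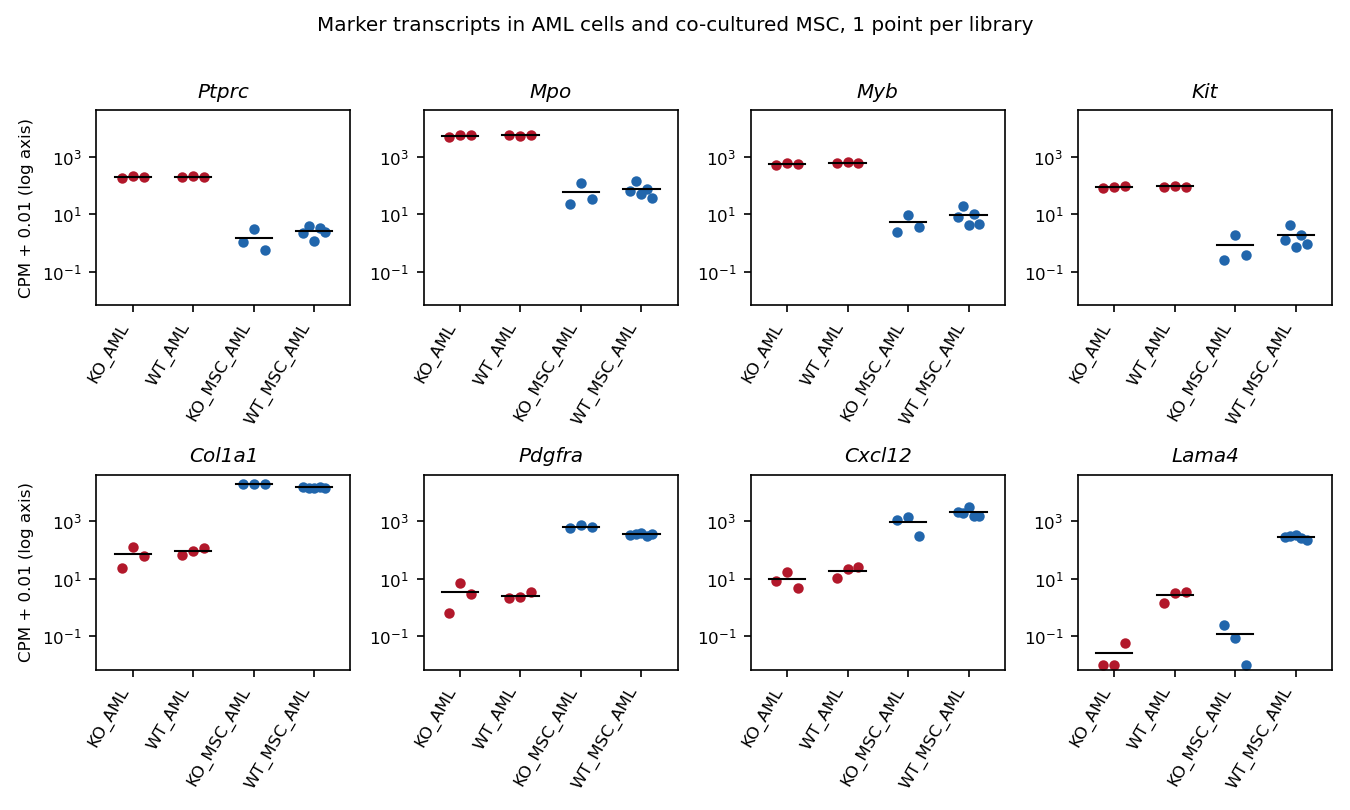
Levels (CPM + 0.01, log axis) of 8 genes in each library of KO_AML, WT_AML, KO_MSC_AML and WT_MSC_AML, with a point per library and a line at the group mean. The blood cell genes Ptprc, Mpo, Myb and Kit lie high in the 6 AML libraries and the stromal genes Col1a1, Pdgfra and Cxcl12 high in the 8 MSC libraries, while Lama4 is high in WT_MSC_AML alone.

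The largest increases in AML cells, among genes with a mean of at least 100 CPM in the higher cell type and no overlap between libraries, included genes of blood cell adhesion, granules and transcription. As log2 fold changes they were Tcf24 (6.78), the transmembrane mucin gene Muc13 (6.66), the nuclear receptor gene Hnf4a (6.66), the ephrin receptor gene Epha7 (6.60), the transcriptional adaptor gene Lmo2 (6.56), the kinase gene Stk26 (6.52), Ctsg, cathepsin G (6.52), the transcription factor gene Nfe2 (6.51) and Ptprc (6.51). Hnf4a, best known from liver, was at 208, 220.3 and 222 CPM in AML cells, against 1.07, 1.67 and 5.30 CPM in co-cultured MSC and 0 to 0.526 CPM in MSC alone. Every AML library was above every MSC library, which the rule required. Of 22 pan-haematopoietic genes tested 21 were higher in AML cells and 1 lower, with a median of 6.33. The exception was Lsp1, an actin-binding protein of leukocytes, at 2.45, 3.41 and 4.89 CPM in AML cells and 67.6, 90.9 and 109 CPM in MSC (log2 fold change −4.62, SE 0.13, adjusted p = 5.64e-14), with no overlap.

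Genes of primary granules were among the most abundant of the AML cells, whereas those of later neutrophil granules were low. Mpo, myeloperoxidase (GRCm38 chromosome 11, 87793784 to 87804412), was at 4731, 5439 and 5690.1 CPM in AML cells, 22.7, 55.6 and 139 CPM in MSC and 0 to 1.75 CPM in MSC alone (log2 fold change 6.36, SE 0.40, adjusted p = 6.05e-10). Per length, Ctsg, Mpo and Elane, neutrophil elastase, were at 1831, 1571 and 1238 RPKM in AML cells and at 20.8, 19.6 and 18.1 RPKM in MSC, and in AML cells they held ranks 6, 10 and 12 of all genes. The lactoferrin gene Ltf of secondary granules, by contrast, was at 0.0599 to 1.20 CPM in AML cells and 0 to 0.287 CPM in MSC and was not tested, and the gelatinase gene Mmp9 was at 0.299 to 2.05 CPM in AML cells and 0 to 0.314 CPM in MSC. Of 23 granule and maturation genes tested, 19 were higher in AML cells, 1 was lower and 3 did not pass (Camp, Lcn2 and Cd14), with a median of 5.48. The lower one was Csf1r, the receptor of CSF1 that marks monocytes and macrophages, at 0.631, 0.986 and 1.21 CPM in AML cells and 1.65, 2.24 and 4.45 CPM in MSC (log2 fold change −1.48, SE 0.30, adjusted p = 2.89e-04). It did not pass with KO stroma alone (log2 fold change −0.78, adjusted p = 0.064).

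The promoters of the granule genes were searched for 8 short motifs, among them one known to be bound by PU.1 and other ETS factors. The letters AGGAAGT, searched on both strands of the 300 bases from 250 before to 50 after each start site in RefSeq (GRCm38.p6), were in 11 of the 22 promoters found for 19 of the 23 granule genes (50.0%). They were in 8.93% of the 13940 promoters of all genes tested, in 14.2% of the 1011 promoters of genes at least 4-fold higher in AML cells and in 6.81% of the 2174 of genes at least 4-fold lower (both with 10 CPM or more in the higher cell type). In the promoters of the pan-haematopoietic list they were in 39.1%. Of the granule promoters 0 held the C/EBP letters TTGCGCA and 0 the MYB letters AACNGTT, against 3.28% and 3.39% of all promoters, and 18.2% held the RUNX letters TGTGGTT, against 3.78% of all. Median GC content was 50.2% for the granule list and 60.3% for all genes tested. A match of letters is a description and not a site of binding. The promoters of the 4 granule protease and peroxidase genes, chosen after their values were seen, are printed because each holds the motif once on its own strand, in capitals, 223 bases before the start site in Mpo (chr11:87793534-87793833, plus strand), 84 in Elane (chr10:79886062-79886361, plus strand), 94 in Prtn3, proteinase 3 (chr10:79879417-79879716, plus strand), and 206 in Ctsg (chr14:56102525-56102824, minus strand).
Mpo: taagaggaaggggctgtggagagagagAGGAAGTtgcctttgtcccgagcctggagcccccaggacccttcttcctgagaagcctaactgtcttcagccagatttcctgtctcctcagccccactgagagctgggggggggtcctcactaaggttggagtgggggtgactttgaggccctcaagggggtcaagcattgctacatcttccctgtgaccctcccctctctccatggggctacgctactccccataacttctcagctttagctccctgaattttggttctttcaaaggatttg
Elane: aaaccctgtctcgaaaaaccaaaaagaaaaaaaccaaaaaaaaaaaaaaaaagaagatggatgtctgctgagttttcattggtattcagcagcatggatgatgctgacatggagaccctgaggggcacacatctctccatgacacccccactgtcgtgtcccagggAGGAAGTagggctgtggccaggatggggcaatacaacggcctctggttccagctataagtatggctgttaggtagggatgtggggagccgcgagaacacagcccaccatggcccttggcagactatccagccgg
Prtn3: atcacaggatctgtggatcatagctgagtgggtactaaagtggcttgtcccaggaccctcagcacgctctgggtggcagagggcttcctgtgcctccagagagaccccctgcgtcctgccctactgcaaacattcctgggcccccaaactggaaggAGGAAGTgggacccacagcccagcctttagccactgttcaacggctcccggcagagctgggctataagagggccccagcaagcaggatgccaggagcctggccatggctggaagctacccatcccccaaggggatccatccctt
Ctsg: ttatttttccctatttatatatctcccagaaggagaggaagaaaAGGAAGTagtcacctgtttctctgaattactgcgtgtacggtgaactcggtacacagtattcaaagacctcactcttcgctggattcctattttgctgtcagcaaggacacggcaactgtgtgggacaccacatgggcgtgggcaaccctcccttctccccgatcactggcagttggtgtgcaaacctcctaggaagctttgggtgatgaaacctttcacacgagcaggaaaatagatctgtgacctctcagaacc
All 4 genes had the same pattern over libraries. Elane was at 1101, 1224 and 1309 CPM in AML cells and 6.10, 16.0 and 37.1 CPM in MSC, and Prtn3 at 832, 978 and 1044 CPM in AML cells and 6.43, 9.02 and 30.4 CPM in MSC.

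Genes of matrix, cytoskeleton and caveolae led the largest decreases by the same rule, that is, the genes highest in MSC relative to AML cells. As log2 fold changes they were Fhl2, a LIM domain cofactor (−8.40), the latent TGF-beta binding gene Ltbp1 (−8.35), the metalloprotease gene Adam12 (−8.28), the matrix peroxidase gene Pxdn (−8.28), the collagen gene Col11a1 (−8.25), the fatty acid carrier gene Fabp4 (−8.17), Cavin2 of caveolae (−8.07), the serine protease gene Htra1 (−8.07), the actin bundling gene Fscn1 (−8.04) and Sorbs2 (−8.03). Fabp4 was at 0.144, 0.422 and 0.618 CPM in AML cells and 82.6, 113 and 183 CPM in MSC. No library of AML cells reached the lowest MSC library, which the rule also required.

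Of 22 stromal identity genes tested, 21 were lower in AML cells and 1 higher, with a median of −7.11. Col1a1, a type I collagen chain (GRCm38 chromosome 11, 94936224 to 94953042), was at 22.7, 77.8 and 125 CPM in AML cells and 13978, 14954 and 19557 CPM in MSC (log2 fold change −7.66, SE 0.40, adjusted p = 3.64e-11). Pdgfra, the PDGF receptor that marks mesenchymal progenitors, was at 0.649, 2.51 and 7.12 CPM in AML cells and 309, 368 and 705 CPM in MSC (log2 fold change −7.26, SE 0.36, adjusted p = 4.34e-11). Vim, vimentin, which many blood cells also make, kept the highest AML level of the list, at 403, 432 and 479 CPM in AML cells and 4207, 5056 and 6634 CPM in MSC (−3.58). Nt5e (CD73), often used to define MSC, was the one gene higher in AML cells, at 4.69, 7.01 and 8.48 CPM, against 0.157, 1.15 and 9.49 CPM in MSC, and the groups overlapped (log2 fold change 1.50, SE 0.56, adjusted p = 0.0218). With KO stroma alone its log2 fold change was 0.16 (adjusted p = 0.881). Several textbook stromal markers were scarce in these cultured MSC too. Lepr, the leptin receptor of marrow stroma, was at 0 in all 8 co-cultured MSC libraries, Dcn, decorin, at 0, 0.0393 and 7.92 CPM and Fap at 0, 0.246 and 0.761 CPM.

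The matrix lists separated the cell types almost completely. Over 102 tested genes of collagens, basement membranes, glycoproteins and matrix processing, 98 were lower in AML cells, 3 were higher and 1 did not pass. Together the 105 listed genes took 899 to 2360 CPM in AML libraries and 147325 to 250686 CPM in MSC libraries. Fn1, fibronectin, was at 34.0, 79.2 and 157 CPM in AML cells and 7829, 9746 and 23176 CPM in MSC. Postn, periostin (−7.95), and Col4a1 of the basement membrane (−7.89) had fold changes like it. Of the 89 lower genes with at least 10 CPM in MSC, 80 were in AML cells at 5% or less of their MSC level (median 0.725% over the 89, quartiles 0.513% and 1.20%). The 9 above 5% were Col15a1, Nid2, Agrn, Emilin1, P4ha1, Plod1, Plod3, Mmp19 and Serpine2. Plod3, a lysyl hydroxylase that modifies collagen, was at 135, 148 and 161 CPM in AML cells and 311, 357 and 423 CPM in MSC (log2 fold change −1.30, SE 0.08, adjusted p = 3.41e-10). The 3 genes higher in AML cells were Plaur, the urokinase receptor (48.2, 52.8 and 58.5 CPM in AML cells and 17.6, 25.3 and 29.4 CPM in MSC), and the neutrophil metalloprotease genes Mmp8 and Mmp9. Mmp8, with 2 counts over all MSC libraries, and Mmp9 averaged 0.982 and 1.13 CPM in AML cells and 0.0206 and 0.0971 CPM in MSC.

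Contractile and focal adhesion genes had the same direction, with 30 of 33 lower and 2 higher in AML cells (median −5.40). Cav1, caveolin 1 (−7.81), the myosin light chain gene Myl9 (−7.60) and the filamin gene Flnc (−7.56) had the lowest fold changes. Pxn, paxillin (1.02), and the transgelin gene Tagln2 (0.72) were higher in AML cells. The factors YAP1 and TEAD, which drive contractile genes in adherent cells, were nearly restricted to MSC. Yap1 was at 0.721, 1.39 and 3.15 CPM in AML cells and 172, 225 and 248 CPM in MSC, and Tead1 at 0.0721, 1.70 and 4.50 CPM in AML cells and 213, 265 and 302 CPM in MSC. The TEAD letters GGAATGT, on either strand, were in 4 of 30 promoters found for 25 of the 33 contractile genes (13.3%), in 4.09% of promoters of genes at least 4-fold lower in AML cells, in 2.47% of those at least 4-fold higher and in 2.87% of all. The AP-1 letters TGANTCA were in as many of the contractile promoters (4 of 30, 13.3%), against 5.32% of all. As 2 stromal genes whose promoters hold them, chosen after their values were seen, the matricellular growth factor gene Ccn1 has the motif 104 bases before its start site as its reverse complement (chr3:145649936-145650235, minus strand), and Axl, a receptor of GAS6, 233 bases before it on its own strand (chr7:25788684-25788983, minus strand), in capitals below.
Ccn1: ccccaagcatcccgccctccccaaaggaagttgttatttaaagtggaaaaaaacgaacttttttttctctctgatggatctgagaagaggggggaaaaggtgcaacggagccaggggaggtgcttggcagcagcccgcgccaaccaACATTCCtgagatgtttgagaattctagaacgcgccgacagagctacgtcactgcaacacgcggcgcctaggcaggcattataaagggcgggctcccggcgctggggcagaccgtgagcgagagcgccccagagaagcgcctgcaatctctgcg
Axl: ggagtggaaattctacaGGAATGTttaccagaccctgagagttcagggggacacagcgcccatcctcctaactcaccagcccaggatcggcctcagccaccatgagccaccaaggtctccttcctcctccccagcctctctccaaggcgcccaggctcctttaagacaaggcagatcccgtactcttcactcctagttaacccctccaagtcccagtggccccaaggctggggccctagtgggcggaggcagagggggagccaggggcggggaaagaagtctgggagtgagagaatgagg
Ccn1 was at 6.70, 13.2 and 26.8 CPM in AML cells and 2329, 2624 and 4155 CPM in MSC, and Axl at 0.216, 3.74 and 7.82 CPM in AML cells and 532, 619.6 and 999.6 CPM in MSC. Neither gene overlapped between the groups. The Ccn1 promoter also holds the letters AGGAAGT, left in small letters above.

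Secreted ligands were mostly lower in AML cells. Of chemokine genes 8 of 13 were lower and 5 higher, of cytokine and colony stimulating factor genes 15 of 22 lower and 4 higher, and of growth factor genes 26 of 29 lower and 1 higher. Of ligands and antagonists of the TGF-beta and BMP family 18 of 20 were lower and 1 higher, and of those of Wnt and Notch 17 of 19 lower and 2 higher. The medians ran from −7.01 for the TGF-beta family to −3.26 for cytokines, against −0.09 for all genes.

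Each cell type had its own chemokines. Cxcl12, which retains blood progenitors in the marrow (GRCm38 chromosome 6, 117168535 to 117181368), was at 4.65, 13.7 and 25.4 CPM in AML cells and 309, 1487 and 3035 CPM in MSC (log2 fold change −6.61, SE 0.45, adjusted p = 1.72e-09). Ccl2 and Ccl7, which attract monocytes, were lower in AML cells (log2 fold changes −7.84 and −7.64), with 0, 0.433 and 1.68 CPM of Ccl7 in AML cells and 42.9, 51.9 and 269.9 CPM in MSC. The groups were fully apart for these 3 genes. Ccl3, which attracts monocytes and other leukocytes, was at 8.92, 14.0 and 17.4 CPM in AML cells and 0, 0.163 and 0.287 CPM in MSC (log2 fold change 6.39, SE 0.29, adjusted p = 7.53e-12), and Ccl9 at 90.3, 99.1 and 109.6 CPM in AML cells and 2.68, 5.61 and 37.1 CPM in MSC (3.48).

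Among cytokines, Csf1, the growth factor of macrophages, was the most abundant in MSC, at 8.87, 17.4 and 33.6 CPM in AML cells and 2057, 2389 and 4079 CPM in MSC (log2 fold change −7.05, SE 0.35, adjusted p = 2.89e-11). Kitl, the ligand of KIT, was at 0.0788, 0.464 and 0.524 CPM in AML cells and 23.1, 38.3 and 87.3 CPM in MSC (log2 fold change −7.06, SE 0.25, adjusted p = 4.69e-13). Both were higher in every MSC library than in any AML library. The cytokines on the AML side were Osm, oncostatin M (11.8, 14.0 and 16.9 CPM in AML cells and 0, 0.181 and 0.804 CPM in MSC, log2 fold change 5.47, SE 0.37, adjusted p = 9.41e-10), Il16 (3.56), Il12a (5.33) and Tnf, which had 2.09, 3.03 and 4.61 CPM in AML cells and 0, 0 and 0.113 CPM in MSC (360 and 2 counts over the libraries). Tnf and Il12a stayed under 6 CPM in each library. Tgfb1, a cytokine that regulates growth and matrix production, was the most abundant ligand on the AML side, at 421, 451 and 474 CPM in AML cells and 39.8, 50.7 and 62.7 CPM in MSC (log2 fold change 3.12, SE 0.09, adjusted p = 8.22e-14).

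Among growth factors and developmental ligands the MSC side prevailed. Gas6, a ligand of the TAM receptors, was among the most abundant transcripts of MSC, at 30.3, 64.5 and 132 CPM in AML cells and 3883, 7457 and 15589 CPM in MSC (log2 fold change −6.80, SE 0.50, adjusted p = 3.75e-09). Pleiotrophin, Ptn (−9.20), and Pdgfa (−8.72) were among the lowest fold changes of their list. Wnt5a (−7.60), the Wnt antagonist gene Dkk2 (−7.49) and Rspo2, which amplifies Wnt signals (−7.08), were lower in AML cells as well. Nrg1, neuregulin 1, was the one growth factor gene higher in AML cells, at 5.36, 6.22 and 7.71 CPM, against 0.550, 1.96 and 3.63 CPM in MSC (1.61). The other developmental ligands on the AML side were the Wnt agonist gene Rspo1 (4.74) and the antagonist gene Frzb (3.40).

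Of 39 ligand and receptor pairs, 10 had the ligand higher in MSC and a receptor higher in AML cells, and 5 had the reverse. A pair was counted when the ligand and at least 1 receptor gene passed in opposite directions. Of all genes tested 40.0% were higher in AML cells and 44.8% lower, so unrelated genes would also meet this rule in part. How often they would was not tested. RNA levels do not show that protein was made or that the pair signalled. The 10 pairs towards AML cells were Cxcl12 with Cxcr4, Kitl with Kit, Flt3l with Flt3, Vcam1 with Itga4, Lamc1 with Itga6, Ccl2 with Ccr2, Vegfa with Flt1, Hgf with Met, Jag1 with Notch1 and Grn with Sort1. For Vegfa and Jag1 the other receptors listed (Kdr and Nrp1, Notch2 and Notch3) were higher in MSC, like the ligand. Cxcr4, the receptor of CXCL12 (GRCm38 chromosome 1, 128588199 to 128592299), was at 87.0, 92.8 and 95.9 CPM in AML cells and 0.495, 1.13 and 4.23 CPM in MSC (log2 fold change 5.97, SE 0.31, adjusted p = 5.94e-11), whereas Ackr3, which binds CXCL12 without classical signalling, was at 0, 0.126 and 1.94 CPM in AML cells and 3.28, 12.0 and 63.9 CPM in MSC (−5.91). Kit was at 82.7, 90.5 and 98.7 CPM in AML cells and 0.247, 1.08 and 4.39 CPM in MSC (log2 fold change 5.99, SE 0.36, adjusted p = 3.86e-10). These 2 receptors were fully separate between the cell types.

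Flt3, the receptor of FLT3 ligand, was at 7.46, 8.41 and 11.4 CPM in AML cells and had 0 counts over all 8 MSC libraries, and Flt3l was at 3.88, 4.30 and 5.27 CPM in AML cells and 7.10, 9.22 and 18.1 CPM in MSC (log2 fold change −1.18, SE 0.20, adjusted p = 4.08e-05). Sort1, sortilin, which takes up progranulin, was at 418, 454 and 478 CPM in AML cells and 4.37, 7.39 and 18.0 CPM in MSC (log2 fold change 5.60, SE 0.30, adjusted p = 1.12e-10). Some of these pairs were less clear. Met and Itga6 overlapped between the cell types and did not pass with KO stroma alone (log2 fold changes −0.10 and 1.47, adjusted p = 0.759 and 0.166). Met was at 19.5, 21.9 and 24.4 CPM in AML cells and 3.56, 5.69 and 31.7 CPM in MSC, and Itga6 at 22.1, 24.4 and 27.0 CPM in AML cells and 0.501, 1.22 and 23.6 CPM in MSC, with KO_MSC_AML replicate 3 at the top. Notch1 differed by log2 0.44, overlapped and did not pass with KO stroma alone (adjusted p = 0.307).

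The 5 pairs towards MSC were Tnf with Tnfrsf1a, Osm with Osmr and Il6st, Tgfb1 with Tgfbr2, Sema4d with Plxnb1 and Plxnb2, and Apoe with Lrp1. Osmr, the receptor chain particular to oncostatin M, was at 0.485, 1.34 and 4.03 CPM in AML cells and 232, 259 and 355 CPM in MSC (log2 fold change −7.42, SE 0.40, adjusted p = 9.15e-11), and its partner chain Il6st (gp130) at 4.83, 8.80 and 13.8 CPM in AML cells and 627, 831 and 2169.5 CPM in MSC (−6.90). Tgfbr2 was at 17.3, 20.3 and 23.2 CPM in AML cells and 139, 174 and 442 CPM in MSC (log2 fold change −3.45, SE 0.23, adjusted p = 1.17e-09), while Tgfbr1, the other chain of the receptor, was slightly higher in AML cells (0.62) with overlap, and not past the threshold with KO stroma alone (adjusted p = 0.262). Tnfrsf1a was at 94.1, 98.3 and 106 CPM in AML cells and 365, 400.1 and 495 CPM in MSC (−2.08), and Tnfrsf1b did not pass (−0.17, adjusted p = 0.313).

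A further 9 pairs had ligand and receptor both higher in MSC, 2 had both higher in AML cells, and 13 were neither. On the MSC side were Csf1 and Il34 with Csf1r, Fn1 with Itga5, Spp1 with Cd44, Lif with Lifr, Pdgfa with Pdgfra, Igf1 with Igf1r, Fgf2 with Fgfr1 and Gas6 with Axl, Tyro3 and Mertk. All 3 TAM receptors were lower in AML cells: Axl averaged 3.83 CPM in AML cells and 654 CPM in MSC, Tyro3 1.19 and 16.5 CPM and Mertk 0.00873 and 3.57 CPM. On the AML side were Icam1 with the β2 integrins and Cd47 with Sirpa, a pair that restrains phagocytosis. Cd47 was at 270.4, 288 and 307 CPM in AML cells and 45.0, 60.3 and 68.7 CPM in MSC (log2 fold change 2.29, SE 0.09, adjusted p = 1.01e-12).

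**Figure D2:**
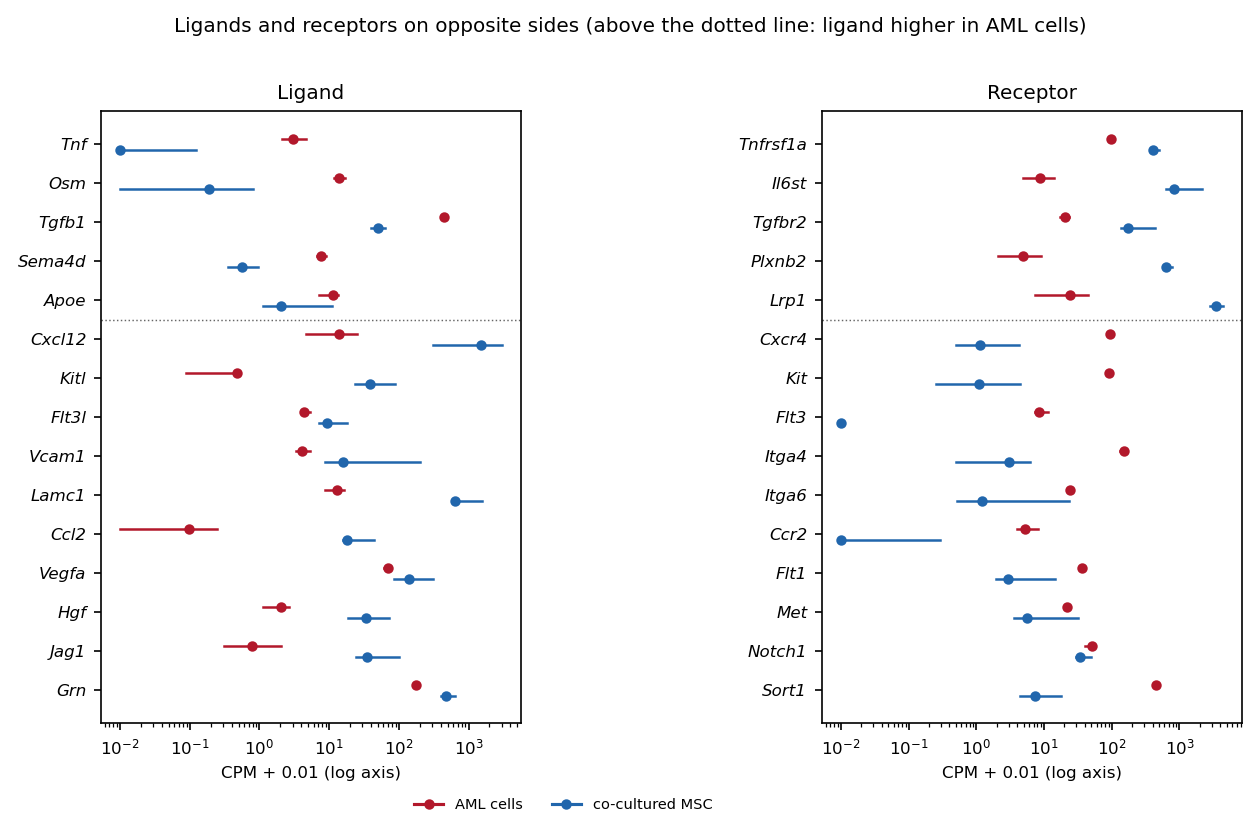
Ligand levels (left) and receptor levels (right) in CPM + 0.01 on a log axis for the 15 pairs on opposite sides, with points at the median and lines from the lowest to the highest of 6 AML libraries (red, upper of each row) and 8 co-cultured MSC libraries (blue, lower). The 5 pairs above the dotted line have the ligand higher in AML cells, such as Tgfb1 with Tgfbr2, and the 10 below it have the ligand higher in MSC, such as Cxcl12 with Cxcr4.

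Receptors divided by class. Receptor tyrosine kinases were mostly on the MSC side (30 of 36 lower and 6 higher in AML cells), as were receptors of TGF-beta, Wnt and Notch ligands (22 of 26 lower and 3 higher). Innate immune receptors were on the AML side (23 of 29 higher and 3 lower, median 5.96). Cytokine receptors were split (15 of 34 higher and 17 lower), not far from the shares of all genes tested (40.0% higher and 44.8% lower). Epha7, the most raised kinase receptor among those with at least 10 CPM, was at 118, 137 and 144 CPM in AML cells and 0.550, 1.14 and 3.32 CPM in MSC (log2 fold change 6.60, SE 0.25, adjusted p = 2.11e-12), above Kit in each AML library. Erbb3, a receptor of neuregulins, was at 23.3, 27.1 and 30.9 CPM in AML cells and 0.149, 0.630 and 1.58 CPM in MSC (5.39). The Wnt receptor gene Ror2 (−7.81), the ephrin receptor gene Ephb2 (−7.81) and Axl (−7.43) were the lowest of the class in AML cells.

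Receptors of GM-CSF and G-CSF were higher in AML cells, and Csf1r, the receptor of CSF1 and IL-34, was lower, at 0.631, 0.986 and 1.21 CPM in AML cells and 1.65, 2.24 and 4.45 CPM in MSC (−1.48; −0.78 with KO stroma alone, adjusted p = 0.0640). Csf2rb, the shared signalling chain of the GM-CSF, IL-3 and IL-5 receptors, was at 206, 239 and 254 CPM in AML cells and 0.825, 3.06 and 6.48 CPM in MSC (log2 fold change 6.19, SE 0.28, adjusted p = 1.17e-11). Its close copy Csf2rb2 followed (6.50), and reads shared between them make the split uncertain. Csf2ra, the ligand-binding chain for GM-CSF, was at 135, 159 and 185 CPM in AML cells and 12.8, 16.6 and 27.6 CPM in MSC (3.17), and Csf3r, the G-CSF receptor, at 21.0, 23.1 and 26.1 CPM in AML cells and 0.165, 0.430 and 1.14 CPM in MSC (5.48). Csf2 and Csf3, the genes of their ligands, were under 0.35 CPM in each of the 14 libraries. The shared chain of interleukin receptors Il2rg (6.30) and Il21r (6.24) were also higher in AML cells, and Il17rc (−7.29) and the IL-1 receptor gene Il1r1 (−6.95) lower. Of the innate immune genes, the lectin receptors Clec4e (38.6, 40.3 and 42.0 CPM in AML cells and 0, 0.303 and 0.761 CPM in MSC) and Clec4d (6.83) and the amplifying receptor Trem3 (6.50) led, and Fcgrt, the neonatal Fc receptor (−6.47), and Tlr5 (−6.10) were lower in AML cells.

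Integrins and selectin partners showed each cell type's own set. Of 22 integrin genes 6 were higher and 15 lower in AML cells. Itgb2, the β chain of leukocyte integrins, was at 367, 415 and 437 CPM in AML cells and 2.23, 5.26 and 14.1 CPM in MSC (log2 fold change 6.08, SE 0.32, adjusted p = 6.94e-11), and its partners Itgam (6.18) and Itgal (6.09) were higher too. Itga4, a chain of the VCAM1 receptor, was at 131, 152 and 171 CPM in AML cells and 0.496, 2.99 and 6.24 CPM in MSC (log2 fold change 5.72, SE 0.33, adjusted p = 2.37e-10), while its partner Itgb1 was at 199, 236 and 254 CPM in AML cells and 2021, 2246 and 2395 CPM in MSC (−3.28). The laminin receptor chain Itga3 (−8.42) and the collagen receptor chain Itga11 (−7.07) had the lowest fold changes, with Itga9 (−7.01). Among other adhesion genes Icam2 (6.79) and Selplg, the ligand of P-selectin (6.43), were higher in AML cells. Nectin3 (−7.95), the glypican gene Gpc6 (−7.48) and the cadherin gene Cdh13 (−7.37) led the 26 of 36 other adhesion genes that were lower.

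**Figure D3:**
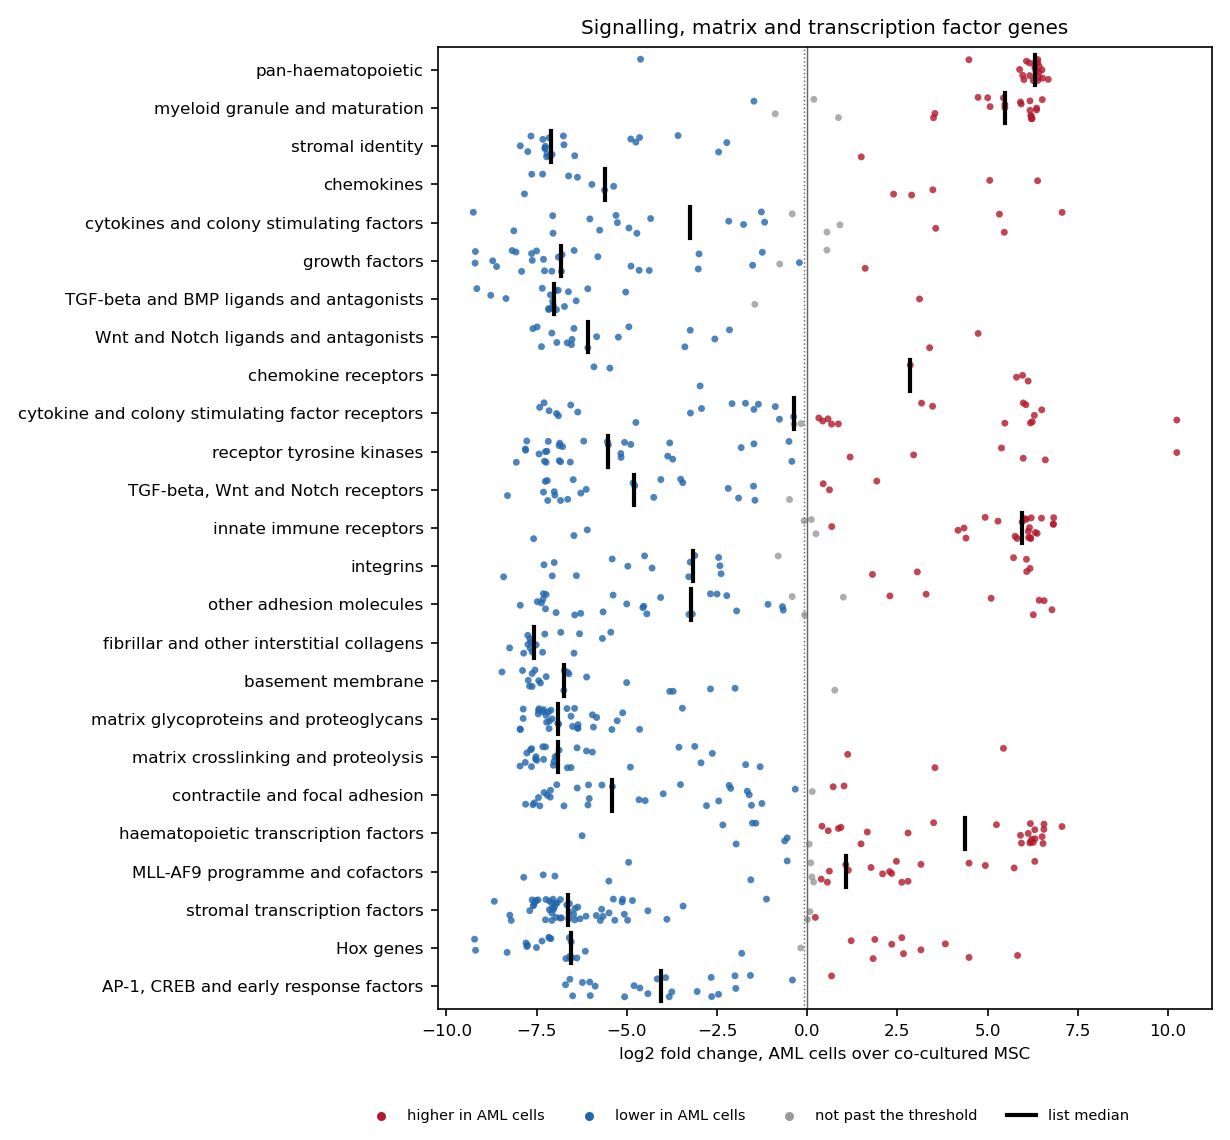
Log2 fold changes (AML cells over co-cultured MSC) of the tested members of 25 gene lists, 1 point per gene, red where higher in AML cells, blue where lower and grey where not past the threshold, with a bar at each list's median and a dotted line at −0.09, the median of all genes tested. The pan-haematopoietic, granule and innate immune lists lie to the right and the matrix, growth factor and stromal transcription factor lists to the left, while cytokine receptors and Hox genes fall on both sides.

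Transcription factors divided the same way. Of 32 haematopoietic factors 24 were higher and 7 lower in AML cells (median 4.38), and of 56 stromal factors 53 were lower and 1 higher (median −6.64). Irf8, which directs monocyte and dendritic cell fate, was at 14.3, 18.0 and 20.3 CPM in AML cells and 0, 0.0889 and 0.394 CPM in MSC (7.06). Lmo2 was at 311, 336 and 359 CPM in AML cells and 1.73, 2.71 and 7.27 CPM in MSC (log2 fold change 6.56, SE 0.30, adjusted p = 1.48e-11), and Hhex, a homeobox factor of early blood cells, followed (6.57). The haematopoietic factors lower in AML cells included Cebpd (−2.34), Irf5 (−1.97) and Runx1, a master regulator of blood stem cells, at 40.8, 48.6 and 52.9 CPM in AML cells and 99.0, 114 and 216 CPM in MSC (log2 fold change −1.52, SE 0.17, adjusted p = 4.51e-07). Irf5 did not pass against MSC cultured alone (−0.52, adjusted p = 0.241). Runx2, known for bone formation, did not pass (0.08, adjusted p = 0.401), with 93.5, 99.1 and 109 CPM in AML cells and 70.1, 101 and 109 CPM in MSC, but it passed with library totals (0.52, adjusted p = 5.13e-05) and against MSC cultured alone (0.37, adjusted p = 0.00489). Runx3 was at 116, 129 and 136 CPM in AML cells and 0.990, 1.65 and 3.05 CPM in MSC (log2 fold change 6.17, SE 0.20, adjusted p = 1.82e-13).

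Twist2, which holds mesenchymal cells undifferentiated (−8.67), Nfib (−7.69) and Tbx3 (−7.62) were the lowest stromal factors in AML cells. Twist2 was at 0, 0.0523 and 0.157 CPM in AML cells and 20.7, 22.8 and 32.4 CPM in MSC. Tshz1 was the one stromal factor higher in AML cells, by log2 0.23 with overlap, and did not pass with WT stroma alone (adjusted p = 0.104). Early response factors were nearly all lower in AML cells (23 of 24 lower and 1 higher). Klf4 was at 0.721, 1.96 and 3.93 CPM in AML cells and 108, 159 and 462 CPM in MSC (−6.58), while Atf4, the factor of the integrated stress response, was higher in AML cells (0.68).

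The programme of MLL fusions was higher in AML cells for 17 of 27 genes and lower for 7. Myb was at 505, 587 and 628 CPM in AML cells and 2.47, 6.33 and 18.8 CPM in MSC (log2 fold change 6.31, SE 0.37, adjusted p = 2.72e-10). Eya1, a transcriptional cofactor and phosphatase, was at 41.1, 42.1 and 47.0 CPM in AML cells and 0.412, 0.684 and 1.69 CPM in MSC (log2 fold change 5.74, SE 0.21, adjusted p = 4.90e-13), and Cdk6 at 114, 131 and 149.6 CPM in AML cells and 2.94, 3.69 and 6.99 CPM in MSC (4.94). The members lower in AML cells included Id3 (−7.32) and Zfp521 (−6.99).

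Hox genes of the a cluster were mostly higher in AML cells and those of the other clusters mostly lower. Of 10 Hoxa genes tested 9 were higher in AML cells. Of 9 Hoxb genes 1 was higher (Hoxb13) and 8 lower, and the 9 Hoxc and 3 Hoxd genes were lower without exception. Summed over the cluster on chromosome 6, Hoxa genes took 477 to 595 CPM in AML libraries and 58.7 to 82.3 CPM in MSC libraries. The Hoxb cluster on chromosome 11 took 7.14 to 10.7 CPM in AML libraries and 5.58 to 199.8 CPM in MSC libraries, which overlapped. The Hoxc cluster on chromosome 15 took 0.291 to 3.15 CPM in AML libraries and 139.7 to 338 CPM in MSC libraries. Hoxa9, the main target of MLL fusions (GRCm38 chromosome 6, 52223097 to 52227370), was at 226, 252 and 277 CPM in AML cells and 6.52, 11.2 and 20.9 CPM in MSC (log2 fold change 4.49, SE 0.20, adjusted p = 8.71e-12), with Hoxa11 (3.83) and Hoxa5 (3.15) the next highest log2 fold changes of the cluster. Hoxa11 did not pass against MSC cultured alone (log2 fold change 1.75, adjusted p = 0.0805). Its difference between the cell types also varied with stroma genotype (−3.61 by the interaction test described below). Hoxa10 had the highest MSC level of the cluster, at 123, 137 and 154 CPM in AML cells and 22.4, 28.3 and 32.1 CPM in MSC. Hoxc6 (−7.77), Hoxc12 (−8.32) and Hoxb9 (−7.51) had the lowest fold changes among Hox genes with at least 10 CPM in MSC. Hoxb9 overlapped, with 0 to 0.539 CPM in AML cells and 0.393 to 91.5 CPM in MSC. With KO stroma alone, 21 Hox genes were tested, of which 10 were higher and 9 lower in AML cells.

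Within families of signalling and cytoskeletal proteins, the leading member per length differed between the cell types in 23 of 35 families. The families were chosen with earlier results of these data known, so the count is not a general share. Some of the 23 were close or low. In MSC, Cebpb and Cebpa each took 31.3% of C/EBP factors, and Irf5 27.5% and Irf3 27.1% of interferon regulatory factors. In AML cells the TEAD and NADPH oxidase families summed to 0.487 and 0.116 RPKM. Rac2, the Rac of blood cells, made up 82.1% ± 0.454 of the Rac family in AML cells and 4.09% ± 2.47 in MSC (SD over 6 and 8 libraries), and Rac1 17.6% ± 0.439 in AML cells and 87.7% ± 2.57 in MSC. The plastin gene Lcp1 took 99.0% ± 0.532 in AML cells and 0.744% ± 0.445 in MSC, where Pls3 led, and the kindlin gene Fermt3, needed for β2 integrin activation, 99.6% ± 0.363 in AML cells and 2.22% ± 1.22 in MSC, where Fermt2 led. The spread between libraries was small against these differences. Of tyrosine phosphatases of the SHP class, Ptpn6 (SHP-1) took 77.2% ± 0.988 in AML cells and 4.83% ± 2.35 in MSC. Of phospholipases C gamma, Plcg2 took 98.0% ± 0.358 in AML cells and 9.85% ± 4.71 in MSC. Lyn made up 85.0% ± 2.32 of the Src family in AML cells and 9.10% ± 4.38 in MSC, where Fyn (47.2% ± 4.81) and Src (36.6% ± 2.02) led. Of the D cyclins, Ccnd3 took 86.8% ± 1.74 in AML cells and 5.10% ± 1.93 in MSC, and Ccnd1 3.90% ± 1.40 in AML cells and 70.1% ± 5.65 in MSC. The 12 families led by the same gene included aldolases (Aldoa), lactate dehydrogenases (Ldha) and glucose transporters (Slc2a1).

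**Figure D4:**
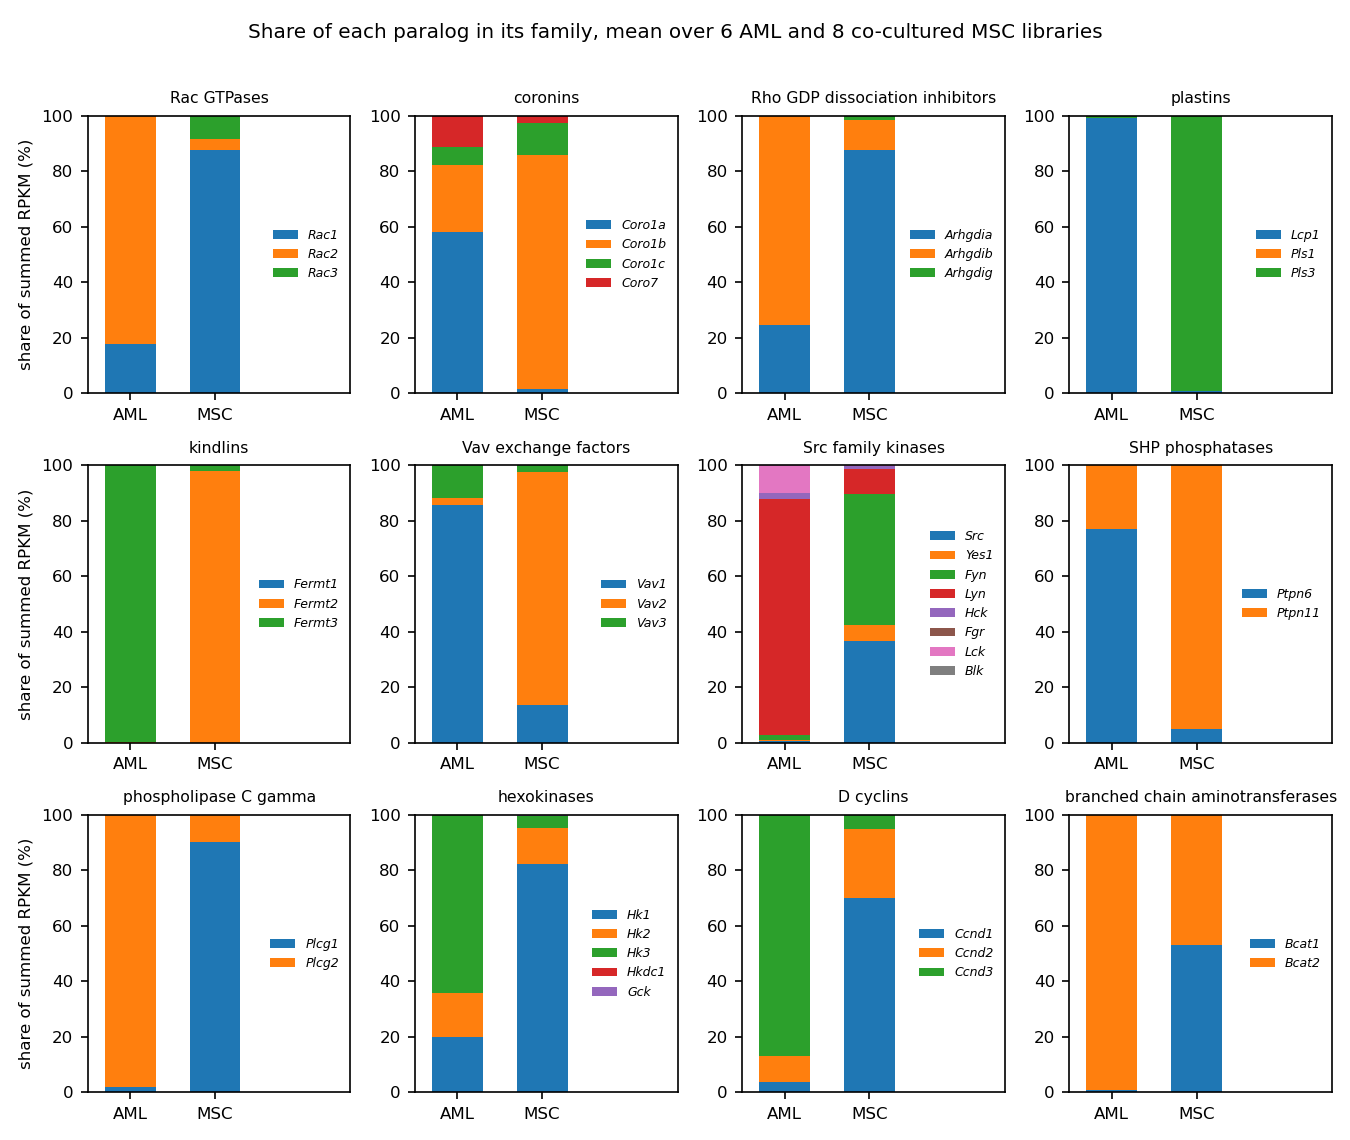
Share of each paralog in the summed RPKM of its family (%), as means over 6 AML libraries (left bar) and 8 co-cultured MSC libraries (right bar), for 12 of the families whose leading member differs. Rac2, Lcp1, Fermt3, Ptpn6, Plcg2 and Ccnd3 lead in AML cells, and Rac1, Pls3, Fermt2, Ptpn11, Plcg1 and Ccnd1 in MSC.

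Genes of central carbon metabolism were higher in AML cells more often than lower. Of 24 glycolysis genes 14 were higher and 5 lower in AML cells (median 0.55), of 9 pentose phosphate genes 7 higher and 1 lower (median 1.37), and of 27 genes of the TCA cycle 21 higher and 5 lower (median 0.63). With KO stroma alone 7 glycolysis genes were higher and 5 lower. Hexokinase, the entry step of glycolysis, came mainly from Hk3 in AML cells, at 322, 352 and 387 CPM, against 1.15, 4.19 and 14.2 CPM in MSC (log2 fold change 5.98, SE 0.42, adjusted p = 2.50e-09). Per length Hk3 took 64.0% ± 1.49 of hexokinase in AML cells and 4.38% ± 3.40 in MSC, where Hk1 took 82.2% ± 2.99. Hk2 (2.35) and Pfkfb3, which makes an activator of phosphofructokinase (2.28), were higher in AML cells. The enolase genes Eno2 (−6.81) and Eno3 (−4.04) and the lactate dehydrogenase gene Ldhb (−6.75) were lower. Rpia and Taldo1 of the pentose phosphate pathway were raised by log2 2.77 and 2.44, and Tkt was at 1161, 1201 and 1253 CPM in AML cells and 277, 355 and 387 CPM in MSC (log2 fold change 1.85, SE 0.09, adjusted p = 1.82e-11). The AML libraries lay above every MSC library for Tkt.

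Mitochondrial genes of the nucleus and of mitochondrial DNA did not move together. Of 38 nuclear genes of oxidative phosphorylation 29 were higher and 1 lower (median 0.70), led by cytochrome c, Cycs, at 32.4, 44.4 and 51.6 CPM in AML cells and 3.88, 8.28 and 12.1 CPM in MSC (log2 fold change 2.43, SE 0.19, adjusted p = 3.97e-09), and Cyc1 (1.78). Of 13 mitochondrially encoded genes 4 were lower and 0 higher (median −0.32), among them ND6 (−0.88) and ND5 (−0.76). Both counts depended on scaling: with library totals 37 of the nuclear genes were higher, and of the mitochondrially encoded genes 3 were higher and 0 lower. Mitochondrially encoded genes took 1.65% to 2.52% of counts in AML libraries and 1.42% to 2.31% in MSC libraries, apart from WT_MSC_AML replicate 5 with 4.99%. The malic enzyme genes went apart, with Me1 at 5.77, 6.42 and 8.06 CPM in AML cells and 63.4, 78.5 and 104 CPM in MSC (log2 fold change −3.62, SE 0.11, adjusted p = 7.92e-14) and the mitochondrial Me2 higher in AML cells (1.71).

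Lipid genes were split between the cell types. Fasn, fatty acid synthase, was at 546, 666 and 742 CPM in AML cells and 95.9, 195 and 273 CPM in MSC (log2 fold change 1.93, SE 0.15, adjusted p = 4.31e-09), and Dgat2, which makes triglycerides, at 104, 121 and 128 CPM in AML cells and 5.06, 7.09 and 15.3 CPM in MSC (log2 fold change 3.75, SE 0.22, adjusted p = 2.37e-10). Lpl, lipoprotein lipase, was at 0.242, 0.489 and 1.12 CPM in AML cells and 89.2, 132 and 187 CPM in MSC (−7.89), and Fabp4 (−8.17) and the lipoprotein receptor gene Lrp1 (−7.10) were lower in AML cells too. The desaturase genes Scd1 (−5.34) and Scd2 (−0.65), which act in fatty acid synthesis, were also lower, Scd2 not past the threshold with library totals (−0.21, adjusted p = 0.118). Over the list 11 of 31 genes were higher and 14 lower, near the shares of all genes tested (40.0% higher and 44.8% lower). Of 18 fatty acid oxidation genes 7 were higher and 8 lower, also near those shares (10 higher and 3 lower with library totals). Acads (1.48) was on the AML side and the brain-type carnitine transferase gene Cpt1c (−6.39) on the MSC side. Of 22 cholesterol synthesis genes 13 were higher and 4 lower (17 and 0 with library totals), with Dhcr7 (2.03) on the AML side.

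Nucleotide and one-carbon genes were higher in AML cells and amino acid genes were split. Of 26 genes of purine and pyrimidine synthesis 22 were higher and 2 lower (median 1.64), led by Adssl1 (3.85), Dctpp1 (2.85) and Ppat, the first enzyme of purine synthesis, at 101, 110.2 and 115 CPM in AML cells and 11.4, 17.0 and 20.6 CPM in MSC (log2 fold change 2.77, SE 0.13, adjusted p = 1.06e-11). Of 19 genes of serine, glycine and one-carbon metabolism 13 were higher and 4 lower. The cytosolic Shmt1 was at 107, 115 and 128 CPM in AML cells and 4.87, 7.86 and 14.3 CPM in MSC (log2 fold change 3.94, SE 0.19, adjusted p = 2.39e-11), whereas the mitochondrial folate enzyme gene Aldh1l2 was at 0.937, 1.36 and 2.81 CPM in AML cells and 114, 228 and 279.6 CPM in MSC (log2 fold change −7.03, SE 0.22, adjusted p = 1.30e-13). Both were fully apart, in opposite directions.

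Among 39 amino acid genes, 14 higher and 22 lower, the glutamine transporter gene Slc38a1 was at 329.8, 391 and 411 CPM in AML cells and 8.14, 12.8 and 19.2 CPM in MSC (log2 fold change 4.87, SE 0.18, adjusted p = 7.49e-13), with the proline dehydrogenase gene Prodh (3.54) also higher. Of the branched chain aminotransferases, the cytosolic Bcat1 was at 1.11, 2.01 and 2.6 CPM in AML cells and 81.6, 154 and 215 CPM in MSC (log2 fold change −6.33, SE 0.28, adjusted p = 1.12e-11). Per length the mitochondrial Bcat2 made up 99.3% ± 0.252 of the pair in AML cells and 47.0% ± 8.19 in MSC. The glutamate transporter gene Slc1a3 (−5.0) and the creatine kinase gene Ckb (−6.05) were lower in AML cells.

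Redox, iron and lipid mediator genes were split, with different enzymes on each side. Of 34 redox genes 13 were higher and 18 lower, of 20 iron and haem genes 8 and 9, and of 21 lipid mediator and hormone genes 7 and 12. Over all genes tested the shares were 40.0% higher and 44.8% lower. Genes of cytosolic subunits of the phagocyte NADPH oxidase were on the AML side: Ncf1 was at 204, 225 and 229 CPM in AML cells and 0.825, 3.44 and 8.39 CPM in MSC (log2 fold change 5.89, SE 0.33, adjusted p = 1.82e-10), and Ncf4 was higher too (6.40). The gene of its catalytic subunit, Cybb, was low, at 0.169, 0.462 and 1.05 CPM in AML cells and 0, 0 and 0.0496 CPM in MSC. MSC instead had the oxidase gene Nox4 (0, 0.0599 and 0.450 CPM in AML cells and 19.0, 26.1 and 56.0 CPM in MSC, −7.90) and the peroxidase genes Gpx7 (−7.30) and Gpx8 (−6.74). Tfrc, the transferrin receptor, was at 315, 395 and 450.2 CPM in AML cells and 29.8, 59.8 and 80.1 CPM in MSC (log2 fold change 2.81, SE 0.19, adjusted p = 1.13e-09), and Fth1, the ferritin heavy chain that stores iron, at 669, 678 and 761 CPM in AML cells and 6769, 9687 and 14768 CPM in MSC (log2 fold change −3.92, SE 0.20, adjusted p = 2.36e-11). Fth1 has many processed copies in the genome, so its level is uncertain. Alox5ap and Alox5, which start leukotriene synthesis, were higher in AML cells by log2 5.59 and 4.51, with Dio2, which activates thyroid hormone (6.07). The retinoid enzyme genes Aldh1a1 (−7.01) and Cyp26b1 (−6.92) were lower.

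**Figure D5:**
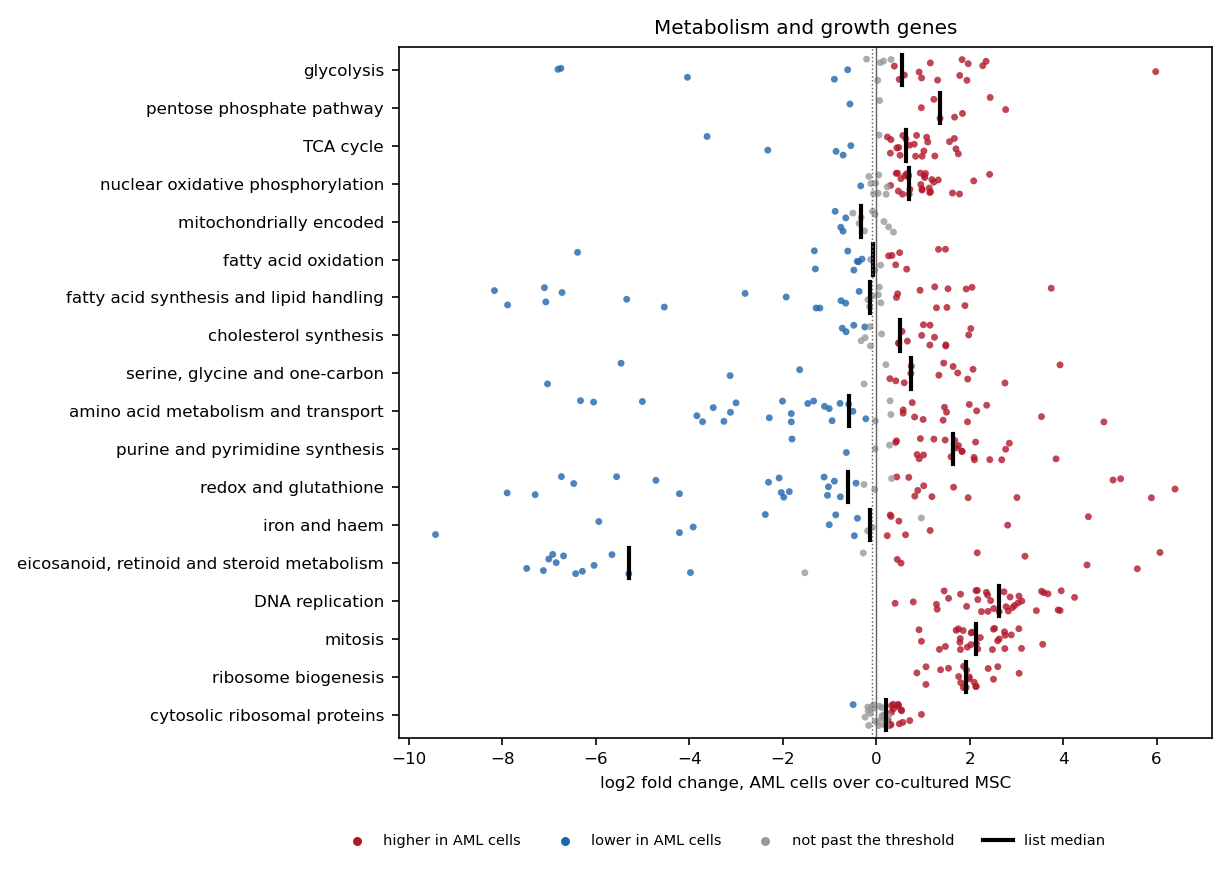
Log2 fold changes (AML cells over co-cultured MSC) of the tested members of 18 metabolic and growth lists, 1 point per gene, red where higher in AML cells, blue where lower and grey where not past the threshold, with a bar at each list's median and a dotted line at −0.09, the median of all genes tested. Replication, mitosis and ribosome biogenesis lie to the right without exception, oxidative phosphorylation lies slightly to the right, and amino acid and redox genes lie on both sides.

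Growth genes were raised throughout in AML cells. All 35 DNA replication genes tested were higher (median 2.63), as were all 29 mitosis genes (median 2.15) and all 20 genes of ribosome biogenesis (median 1.93), with 0 lower, also when scaled by library totals. Cdc45, a subunit of the replication helicase, was at 147, 158 and 167 CPM in AML cells and 4.71, 8.76 and 16.5 CPM in MSC (log2 fold change 4.25, SE 0.24, adjusted p = 1.47e-10). Kif11, the motor that separates spindle poles, was at 269, 293 and 324 CPM in AML cells and 7.69, 35.5 and 59.8 CPM in MSC (log2 fold change 3.56, SE 0.35, adjusted p = 1.52e-07). Nolc1, a nucleolar chaperone, was at 697, 729 and 742 CPM in AML cells and 45.9, 99.6 and 130.4 CPM in MSC (log2 fold change 3.06, SE 0.17, adjusted p = 5.97e-11). The genes of cytosolic ribosomal proteins differed less, with 16 of 40 higher and 1 lower (median 0.21; 34 higher and 0 lower with library totals), and processed copies make single members uncertain. Of 19 genes of cyclin dependent kinase inhibitors and p53 targets 15 were lower and 4 higher. Cdkn2c, an inhibitor of CDK4 and CDK6, was at 112, 120.4 and 124 CPM in AML cells and 6.13, 10.1 and 12.4 CPM in MSC (log2 fold change 3.67, SE 0.13, adjusted p = 3.24e-13), and its relative Cdkn2b at 0.512, 0.723 and 2.88 CPM in AML cells and 38.2, 63.5 and 172 CPM in MSC (−6.48).

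Genes for protein export fell on both sides, and those for antigen presentation were more often higher than lower in AML cells. Secretory pathway and chaperone genes were higher for 14 of 33 and lower for 15, near the shares of all genes tested (40.0% higher and 44.8% lower). The chaperone cofactor gene Sdf2l1 (2.87) was on the AML side and Creb3l1, a factor for collagen secretion (−3.83), on the MSC side. Antigen presentation genes were higher for 10 of 19 and lower for 6 (median 0.74), and at least 4-fold higher for 4 and lower for 0. The immunoproteasome gene Psmb8 was at 99.4, 112 and 126 CPM in AML cells and 2.68, 5.01 and 11.3 CPM in MSC (log2 fold change 4.25, SE 0.23, adjusted p = 8.84e-11), and B2m, the light chain of MHC class I, at 136, 165 and 171 CPM in AML cells and 275, 317 and 389.6 CPM in MSC (−1.02). Of 16 interferon response genes 5 were higher and 10 lower, with Oas1a (5.87) the highest and Isg20 (−3.50) the lowest among those with at least 10 CPM in the higher cell type.

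Whether the difference between AML cells and MSC itself differed with the genotype of the stroma was tested as an interaction, where a positive value means a larger AML over MSC ratio in KO than in WT co-cultures. It passed for 1805 of 14536 genes (12.4%), 843 positive (5.80%) and 962 negative (6.62%). With library totals 1333 of 1995 were positive. Mean Ddx3y, a Y-linked gene, was 0.356 CPM in KO_MSC_AML and 58.5 CPM in WT_MSC_AML, and mean Xist, made by the inactive X chromosome, 454 and 3.42 CPM, so genotype and sex of the stroma cannot be told apart. Of 29 mitosis genes 27 were positive and of 35 replication genes 21, with 0 negative in both lists. Kif11 was at 281, 315 and 324 CPM in KO_AML and 269, 292 and 294 CPM in WT_AML, against 11.2, 7.69 and 14.4 CPM in KO_MSC_AML and 50.1, 51.4, 24.7, 59.8 and 46.3 CPM in WT_MSC_AML (log2 difference 2.17, SE 0.35, adjusted p = 0.00173). The AML groups overlapped and the MSC groups did not, with lower levels in KO_MSC_AML. Without WT_AML replicate 1, WT_AML replicate 3 or KO_AML replicate 3 the count fell to 1201, 1142 and 1146.

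The largest interaction values are given among genes past the threshold with a mean of at least 100 CPM in at least 1 of the groups. Col2a1, the cartilage collagen gene, had the largest positive value of these, at 0, 2.36 and 0.0969 CPM in KO_AML and 3.31, 5.63 and 6.52 CPM in WT_AML, against 12.2, 21.1 and 13.4 CPM in KO_MSC_AML and 854, 894, 536, 1040.4 and 963 CPM in WT_MSC_AML (log2 difference 3.23, SE 0.95, adjusted p = 0.0426). It rested on 1 library: without KO_AML replicate 2 the value was −0.53 (adjusted p = 0.816). It also missed the threshold without any 1 of 10 other libraries (adjusted p = 0.0548 to 0.0878). The largest negative values of these genes were those of Limch1 (−8.99), Naalad2 (−8.83) and Xist (−6.99), with mean levels in KO_MSC_AML of 165, 102.8 and 454 CPM and in WT_MSC_AML of 0.278, 0.0480 and 3.42 CPM. Limch1 was at 245, 244 and 6.44 CPM in KO_MSC_AML, so 1 of these libraries lay at the level of the AML libraries (5.96 to 8.91 CPM), and its call was lost with the replicate block (−7.88, adjusted p = 0.0615). That of Naalad2 was lost with the block (−7.98, adjusted p = 0.0808) and without WT_AML replicate 1 (−6.40, adjusted p = 0.9999). Vcam1, the ligand of the Itga4 integrin, was at 3.32, 3.93 and 5.38 CPM in KO_AML and 4.34, 3.71 and 5.00 CPM in WT_AML, against 142, 204 and 114 CPM in KO_MSC_AML and 14.0, 16.1, 15.7, 12.9 and 8.84 CPM in WT_MSC_AML (log2 difference −3.54, SE 0.35, adjusted p = 4.46e-05). The libraries of KO_MSC_AML lay above all others, and those of WT_MSC_AML above both AML groups.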

How the data were processed

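RNA was measured by sequencing in 14 libraries, 6 of AML cells and 8 of co-cultured MSC, with 8 libraries of MSC cultured alone for background. Per the labels' protocols, cells were sorted, amplified with SMART-Seq v4, made into libraries with Nextera XT and read as single ends of 75 bases. The submitters' processing notes name STAR 2.6.1d, Subread featureCounts, FastQC 0.11.8, MultiQC 1.7 and DESeq2. The authors deposited raw counts per gene, which were used here as deposited. The strand setting of the counting is not known, and reads of overlapping or antisense genes cannot be told apart. The table has 27179 gene rows. The 1275 rows without a symbol (0.501% to 0.817% of counts) were left out of named results, and 22 other columns of per-sample values were not used.

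Genes were kept with filterByExpr, scaled with TMM and fitted in edgeR 4.0.16 (limma 3.58.1, R 4.3.3) with robust quasi-likelihood tests on stroma genotype and cell type. P-values were adjusted by Benjamini-Hochberg over all genes at 0.05. The interaction used the same libraries. RPKM used exonic lengths, and gene coordinates and promoters came from RefSeq (GRCm38.p6). Standard errors are the log2 fold change divided by the square root of F. Tables were made with Python 3.11.15 and pandas 2.3.3.

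Named genes are the 10 largest changes per direction with at least 100 CPM in the higher cell type and no overlap, the 3 highest and lowest per list with at least 10 CPM, and all genes of the pairs and families. Other genes given with values (Ltf, Mmp8, Mmp9, Cybb, Vim, Dcn, Fap, Lepr and further list members) were chosen after their values were seen. Some genes that the rule names are not reported here. The comparison, lists, pairs and families were chosen with earlier results of these data known. Replicate pairs differed by more than sampling noise (smallest chi-square per degree of freedom 5.84). Tested on simulated data, the cell type comparison recovered 67.3% of 2-fold and 94.9% of 4-fold changes with 14 false calls among 14220 genes. The interaction recovered 36.7% and 68.8% with 3 false calls among 14227 genes. In the simulated data only a small part of the genes was changed, equally in both directions. In the real comparison of cell types 84.8% of genes passed, so these rates do not carry over to it. Before changes were put in, each simulated gene had the same mean in all libraries, with no difference between cell types. The rates of the simulated interaction therefore do not carry over to the real interaction either. Other scalings, filters, tools, covariates and subsets of libraries were tried.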

Additional observations from a re-analysis of the deposited data

Results flagged for a closer look

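Among the 5 WT_MSC_AML libraries, 1 library stood far from the other 4 in 24 of 207 measures examined, where chance gives about 1 in 20 groups. In replicate 2 several AML genes were highest of the group: Itgb2 was at 14.1 CPM (3.45 to 6.30 CPM in the other 4), Prtn3 at 30.4 CPM (7.40 to 12.2), Itgam at 4.11 CPM (1.15 to 1.99), Selplg at 2.25 CPM (0.345 to 0.636), Cdk6 at 6.99 CPM (2.94 to 4.11), Dgat2 at 11.2 CPM (5.06 to 6.25), Met at 6.99 CPM (3.56 to 4.38) and Tnf at 0.113 CPM (0 in the others). The same library had the highest median trace of AML transcripts, 3.06%. It was lowest for Rpia, at 12.8 CPM (15.9 to 16.8). In replicate 5 the mitochondrially encoded share was 4.99% (1.43% to 2.31% in the other 4), and ND5 was at 3226 CPM (985 to 1618). That library was also highest for Col11a1 (51.0 CPM), Csf2ra (27.6 CPM), Cyp26b1 (83.0 CPM), Htra1 (381 CPM), Twist2 (32.4 CPM) and Cybb (0.0496 CPM). Replicate 3 was highest for Gas6, at 12093 CPM (5970 to 7479, lowest and highest of the others), Ccn1 (2830 CPM), Rspo2 (229 CPM) and Dcn (0.188 CPM) and lowest for Scd2 (608 CPM), Aldh1l2 (161 CPM) and Me1 (63.4 CPM).

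The difference between AML cells and MSC differed with stroma genotype, by the interaction test in edgeR at an adjusted p under 0.05, for 22 of the genes given with values. The ratio of AML cells to MSC was higher in KO co-cultures for 6 of them, with log2 differences of 3.23 for Col2a1, 2.17 for Kif11, 2.17 for Eno3, 1.24 for Cdc45, 1.09 for Me2 and 0.90 for Nolc1. It was lower for 16. Among genes of signalling and adhesion the values were −3.54 for Vcam1, −3.10 for Itga6, −2.34 for Met, −1.11 for Tnfrsf1b and −0.67 for Cd44. Among transcription factors and cofactors they were −4.60 for Tbx3, −3.61 for Hoxa11, −1.48 for Fhl2 and −1.21 for Cebpd. Matrix genes had −2.61 (Htra1) and −2.09 (Col11a1), and enzymes −1.82 (Cpt1c) and −1.59 (Adssl1). The lowest were −8.99 for Limch1, −8.83 for Naalad2 and −6.99 for Xist. Of these 22 calls 10 held in all 20 alternatives run for each, and 7 were lost in 1 to 6 of them. The other 5 were lost in most: Itga6 and Fhl2 in 16, Eno3 and Col2a1 in 15 and Tbx3 in 12. Itga6 was −1.27 without KO_MSC_AML replicate 3 (adjusted p = 0.110). Sex, genotype and the difference between KO_AML and KO_MSC_AML in stromal traces cannot be told apart in these values.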

How the results depend on the processing

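The comparison of cell types called 12325 genes, and 12171 to 12534 when each library was left out in turn. It called 12326 with DESeq2 size factors, 12623 with library totals, 12379 with upper quartile scaling, 13636 with no filter, 13259 with DESeq2's Wald test, 12183 without stroma genotype, 10884 with KO stroma alone, 11594 with WT stroma alone and 12690 against MSC cultured alone. Against a fold change of 2 (glmTreat), 7354 genes passed, 2925 of them higher in AML cells. With library totals 11109 of the 11212 shared calls kept their direction. Correlations between AML and MSC libraries of the same number ran from −0.03 to 0.15, and between those of different numbers from −0.19 to 0.097. With KO stroma, numbers 2 and 3 (0.151 and 0.146) lay above the limit of 0.1 set for pairing. Whether the numbers pair the libraries was therefore not settled. With a replicate block the count was 11830, against 12179 without it on the same libraries.

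The interaction was less stable. It called 1805 genes, 863 with the replicate block (355 positive and 508 negative), against 1581 without it on the same libraries, and 1142 to 2216 when each library was left out. Positive calls ran from 509 to 1097 and negative calls from 631 to 1122 in those fits, and library totals gave 1333 positive calls. The interaction value of Col2a1 was −0.53 without KO_AML replicate 2 and at most 3.82 when any other library was left out. Met was −0.10 with KO stroma alone. Runx2 was −0.074 with WT stroma alone, and Tnfrsf1b was 0.27 with library totals and 0.32 with WT stroma alone. The cause was not tested for any of these. Traces of the other cell type, the unstated number of AML transductions and unstated sequencer runs limit all values. With WT stroma, sex and cell type cannot be told apart either.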
